A study of Mus musculus with 3 samples.

Results

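The nuclear genome encodes most subunits of the 4 proton-moving complexes of the mitochondrial inner membrane, and 84 such genes, 8 of them for assembly factors, were followed through a treatment of mouse embryonic stem cells with the adenosine analogue tubercidin. Members were chosen by symbol (Ndufa, Ndufb, Ndufc, Ndufs, Ndufv, Uqcr, Cox4 to Cox8 and Atp5, leaving out pseudogene symbols that end in -ps), and by a level of at least 1 CPM (UMIs scaled to a library total of 1000000) in control cells. Of 32285 genes in the files 89 had such a symbol, and 84 of them were among the 13454 genes that reached 1 CPM in control cells. Just inside the minimum stood Cox7b2 at 1.08 CPM, followed by Cox7a1 at 10.4 CPM. Just outside stood Cox4i2 at 0.839 CPM and Ndufa4l2 at 0.562 CPM, then Cox6a2 at 0.410, Cox8c at 0.181 and Cox8b at 0 CPM, which at 3 counts allows up to 0.0286 CPM. The minimum used control values, which are given here as levels. The set itself was proposed after results of these libraries were known, so its values are a description.

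All cells were E14 embryonic stem cells of 129/Ola background, kept in medium with 15% serum and leukaemia inhibitory factor, and treatment began 24 h after seeding. The control library received the solvent DMSO for 6 h, and the 2 treated libraries came from cells exposed for 3 h or 6 h to tubercidin at 10 uM, so the 3 h cells had no DMSO control of their own duration. RNA with a poly(A) tail was counted per cell from its 3′ end by droplet barcoding. Since each condition had 1 library, replicate spread is unknown, no difference was tested, and each interval given is an exact 95% interval for counting error alone.

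Oxidative phosphorylation passes electrons from NADH through complex I, and from succinate through complex II, to ubiquinone, complex III, cytochrome c and complex IV, which reduces oxygen. Complexes I, III and IV pump protons, and complex V, the ATP synthase, uses the gradient to make ATP. A few core subunits come from the mitochondrial genome, and all other subunits are made in the cytosol and imported, so complexes I, III, IV and V each draw on both genomes. Embryonic stem cells in culture rely heavily on glycolysis while keeping a working respiratory chain.

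The called cells numbered 2031 with DMSO, 2365 after 3 h and 2926 after 6 h, with 104892739, 29892000 and 24681924 UMIs. The median cell held 4.08-fold fewer UMIs at 3 h and 6.05-fold fewer at 6 h than in the control. Each library shared 2 cell barcodes with the others. All 10 embryonic stem cell markers were detected in every library, at a summed 3845 to 5244 CPM, and the defining fibroblast markers summed to 0.963 to 2.19 CPM. Markers of 2-cell-like cells summed to at most 1.17 CPM, of primitive-endoderm-like cells to at most 18.6 CPM and of trophoblast-like cells to at most 39.5 CPM. Because less RNA per cell and lower sequencing depth cannot be told apart here, changes are given relative to each library's total or to the median gene.

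The sequences shown first belong to the ATP synthase c subunit, the ring protein through which protons pass, because its genes went apart while their product is the same. Its 3 genes encode one and the same mature protein behind different import signals, so their transcripts can be told apart only by their bases. The last 78 codons (234 bases) encode the same residues in Atp5g1, Atp5g2 and Atp5g3, yet 63 positions differ among the 3, of which 55 are the last base of a codon. The stretches below run 5′ to 3′ from GENCODE M21 (GRCm38), without the stop codon, and capitals mark each base that is not identical in all 3.
Atp5g1: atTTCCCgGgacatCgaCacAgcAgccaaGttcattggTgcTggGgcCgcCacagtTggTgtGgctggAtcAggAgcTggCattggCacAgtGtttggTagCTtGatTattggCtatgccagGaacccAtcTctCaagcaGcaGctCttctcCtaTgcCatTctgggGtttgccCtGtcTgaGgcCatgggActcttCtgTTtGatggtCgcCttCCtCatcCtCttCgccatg
Atp5g2: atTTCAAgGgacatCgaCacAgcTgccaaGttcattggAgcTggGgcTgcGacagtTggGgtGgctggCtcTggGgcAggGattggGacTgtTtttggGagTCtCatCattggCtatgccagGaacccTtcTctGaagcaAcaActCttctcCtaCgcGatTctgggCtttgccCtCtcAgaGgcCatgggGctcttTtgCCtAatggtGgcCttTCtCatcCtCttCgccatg
Atp5g3: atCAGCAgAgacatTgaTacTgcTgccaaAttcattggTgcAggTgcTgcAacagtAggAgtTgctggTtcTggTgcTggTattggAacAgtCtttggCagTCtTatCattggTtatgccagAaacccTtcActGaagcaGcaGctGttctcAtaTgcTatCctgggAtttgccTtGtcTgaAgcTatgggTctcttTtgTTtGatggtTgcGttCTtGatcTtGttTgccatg
Atp5g1 and Atp5g2 were 84.6% identical over this stretch, Atp5g1 and Atp5g3 78.6% and Atp5g2 and Atp5g3 77.4%. G or C was the last base of 62.8% of codons in Atp5g1, 61.5% in Atp5g2 and 39.7% in Atp5g3. The genes lie at chr11:96068852-96075670, chr15:102662864-102672352 and chr2:73908447-73911326, each on the minus strand with 5 exons.

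Seen as a whole, the set took 2.93% of all UMIs with DMSO, 3.23% after 3 h and 3.33% after 6 h. The counting intervals, 2.92 to 2.93%, 3.23 to 3.24% and 3.32 to 3.34%, did not overlap. The UMIs of these genes counted per cell averaged 1512 with DMSO, 409 after 3 h and 281 after 6 h, which is 3.70-fold and 5.38-fold lower. These numbers move with sequencing depth as well as with RNA per cell and are not absolute amounts. Highly expressed genes weigh most in such sums, and Cox4i1 alone was at 1458, 2704 and 2786 CPM. By CPM 46 members were higher and 38 lower than in the control at 3 h, and 50 and 34 at 6 h. Of all genes tested, 27.5% were higher at 3 h and 40.2% at 6 h.

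Gene by gene, the log2 ratio of CPM + 1 between 3 h and the control had a median of 0.05 over the 84 members and of -0.28 over the 13454 genes tested, a difference of 0.33. Counted by a rule of size on the log2 scale, 43 members stood at least 0.32 above the median gene, where 24.8% of all genes were, and 3 were at least 0.32 below it, where 24.9% of all genes were. At least 2-fold above the median gene stood 1 member, Cox4i1, against 2.53% of all genes, and 0 members stood 2-fold below, against 2.14%. Highly expressed genes stood somewhat above the median gene too: the 3102 genes that averaged 50 CPM or more had a median of -0.19, and 1805 of them were above it.

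At 6 h the median log2 ratio against the control was 0.11 over the members and -0.12 over all genes, a difference of 0.23. Relative to the median gene, 34 members were at least 0.32 above (26% of all genes were) and 14 at least 0.32 below (26.4% of all genes). Past 2-fold, 1 member stood above, again Cox4i1, against 4.45% of all genes, and 0 below, against 3.58%. The quartiles of the members' log2 ratios were -0.17 and 0.28 after 3 h, and -0.25 and 0.37 after 6 h. The plot of log2 ratios by gene shows this spread within every complex.

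**Figure D1:**
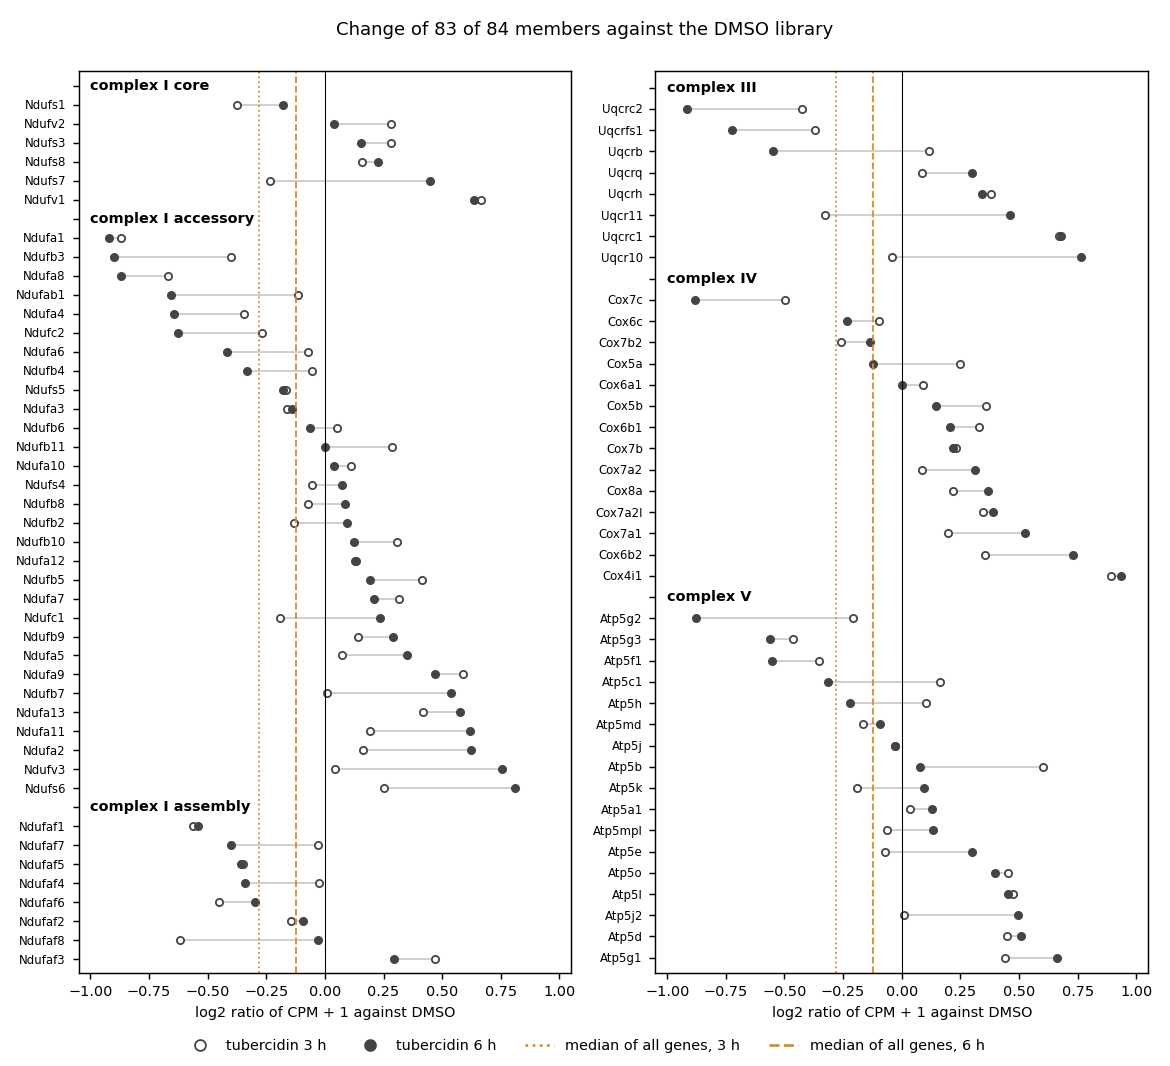
Log2 ratio of CPM + 1 against the DMSO library for 83 of the 84 members (horizontal axis), by role, at 3 h (open circles) and 6 h (filled circles). Vertical lines mark the median of all 13454 genes tested, -0.28 at 3 h (dotted) and -0.12 at 6 h (dashed), and members lie on both sides of them, from -0.92 for Ndufa1 to 0.93 for Cox4i1 at 6 h.

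Directly between the treated libraries, 6 h against 3 h, the members' median log2 ratio was -0.01 and that of all genes 0.15. Here 8 members were at least 0.32 above the median gene (18.1% of all genes were) and 24 at least 0.32 below it (16.8% of all genes). Uqcr10 and Uqcr11 had the highest ratios, 0.81 and 0.79, and Atp5g2 and Uqcrb the lowest, -0.67 and -0.66.

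The sign of a raw ratio depended on the scaling between libraries. Median-of-ratios size factors moved the median of all genes by 0.24 at 3 h and TMM factors by 0.19. With them 67 and 64 of the 84 members were higher than in the control at 3 h, against 46 with CPM. Between 6 h and 3 h, 16 and 17 members were higher under these factors, against 41 with CPM. Expressed as UMIs per cell, 0 members were higher than in the control at either time. The members' position relative to the median gene was the same under each of these scalings while the pseudocount was added on the CPM scale. With the pseudocount added to UMIs per cell instead, the members' median stood at -0.02 relative to the median gene at 3 h and at -0.23 at 6 h. At 3 h that step moved the median of all genes from -2.31 to -1.92 and the members' median from -1.98 to -1.94. A pseudocount added to UMIs per cell shrinks low genes of the treated libraries more. Levels in the control had a median of 243 CPM over the members and 16.7 CPM over all genes tested. The position above the median gene thus depends on where the pseudocount enters and does not hold for every setting. Among genes that average 50 CPM or more, with the pseudocount on the CPM scale, the members' position was 0.27 at 3 h and 0.18 at 6 h.

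Complex I oxidises NADH, and its 7 nuclear core subunits include those that carry the flavin and the iron-sulphur clusters. As a group they had median log2 ratios of 0.27 at 3 h and 0.15 at 6 h, with 5 of 7 higher than in the control at 3 h and 6 of 7 at 6 h. Among all genes tested 27.5% had a ratio above 0 at 3 h and 40.2% at 6 h, which is the background for such counts in each complex. Ndufv1, which binds the flavin and NADH, was at 120 CPM with DMSO, 190 after 3 h and 186 after 6 h. Its log2 ratios were 0.67 (0.63 to 0.72) and 0.64 (0.59 to 0.69), so both treated libraries stood above the control by about the same amount. Its partner in the NADH module, Ndufv2, was at 169, 206 and 174 CPM, and was above the control mainly at 3 h. Ndufs7, which holds the last cluster before ubiquinone, was at 196, 167 and 268 CPM, below the control at 3 h and above it at 6 h. Ndufs1, the large subunit with several clusters, was at 106, 81.6 and 93.4 CPM and was the one core subunit under the control in both treated libraries. Ndufs3 was at 103 CPM with DMSO and 114 CPM after 6 h (log2 ratios 0.28 and 0.15), and Ndufs8 at 68.9, 77.0 and 80.7 CPM. Both subunits, part of the module that leads electrons to ubiquinone, were higher in both treated libraries.

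The 30 accessory subunits of complex I, which surround the core and support its assembly and stability, split into both directions. Their median log2 ratios were 0.03 at 3 h and 0.09 at 6 h, with 16 and 18 of 30 higher than in the control. At 6 h, 11 were at least 0.32 above the median gene, where 26% of all genes were, and 6 at least 0.32 below, where 26.4% were. Ndufs6, which carries a zinc site, was at 411 CPM with DMSO, 490 after 3 h and 723 after 6 h, a log2 ratio of 0.81 at 6 h. Ndufv3, a small subunit of the NADH module, was at 163, 168 and 276 CPM. Its interval at 3 h, -0.00 to 0.09, included 0, and its 6 h ratio was 0.76 (0.72 to 0.80). Ndufa9, a subunit near the ubiquinone site, was at 88.3, 133 and 122 CPM, and Ndufa13, also known as GRIM-19, at 232, 311 and 347 CPM.

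At the other end, Ndufa1, a small membrane-arm subunit encoded on the X chromosome, was at 94.3, 51.2 and 49.3 CPM. Its log2 ratios were -0.87 (-0.96 to -0.80) and -0.92, the lowest of the set at both times. Ndufa8, which lies on the intermembrane-space side, was at 134, 83.9 and 73.0 CPM, and Ndufb3, a membrane-arm subunit, at 102, 76.8 and 54.2 CPM. Ndufa8 was already low at 3 h, with a log2 ratio of -0.67, whereas Ndufb3 went from -0.40 to -0.90. Counts of Ndufs6 and Ndufb3 are uncertain because each has a near copy elsewhere in the genome. Ndufa4, grouped here by its symbol but known as a subunit of complex IV, was at 870, 685 and 557 CPM, lower at both times.

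The 8 Ndufaf genes encode assembly factors, proteins that build complex I without staying in it. Their median log2 ratio was -0.25 after 3 h and -0.32 after 6 h, below that of each group of subunits within the set, and 7 of 8 were lower than in the control each time. Of all genes, 72.5% were lower at 3 h and 59.8% at 6 h. Relative to the median gene their medians were 0.03 and -0.20, so at 3 h they stood where most genes stood. Ndufaf1, which helps assemble the membrane arm, was at 28.7, 19.1 and 19.4 CPM. Ndufaf8, a partner of Ndufaf5, was at 76.8 CPM, then 49.7 CPM at 3 h and 75.4 CPM at 6 h, and its 6 h interval of -0.10 to 0.05 included 0. Ndufaf3 was the one assembly factor above the control, at 23.0, 32.2 and 28.5 CPM. Ndufaf4, with which it works, was at 40.9, 40.2 and 32.1 CPM. Ndufaf7, a methyltransferase, was at 28.0, 27.4 and 20.9 CPM, and its counts are uncertain because of near copies.

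**Figure D2:**
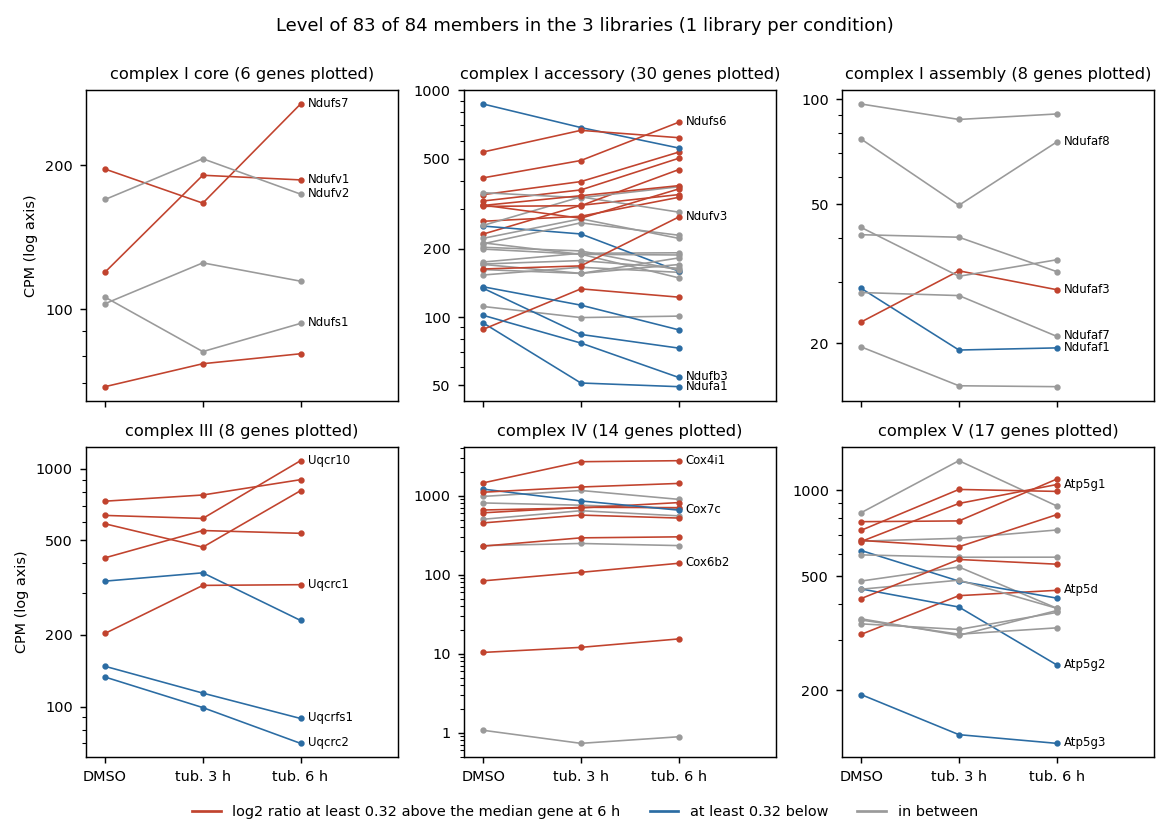
Level of 83 of the 84 members (CPM, log axis) in the DMSO, 3 h and 6 h libraries, in 1 panel per role, with 1 line per gene coloured by its place relative to the median gene at 6 h. In complex III 5 lines are at least 0.32 above and 3 at least 0.32 below, and the labels name the extreme genes of each panel.

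Complex III, which moves electrons from ubiquinol to cytochrome c, split into both directions at 6 h. All 8 Uqcr genes were then at least 0.32 away from the median gene, 5 above and 3 below, where 26% and 26.4% of all genes were. The 2 core proteins, large subunits related to mitochondrial processing peptidases, went opposite ways. Uqcrc1 (chr9:108936633-108949623) was at 203 CPM with DMSO, 323 after 3 h and 326 after 6 h. Uqcrc2 (chr7:120635176-120659524) was at 133, 99 and 70.0 CPM. The log2 ratios of 3 h and 6 h were 0.67 and 0.68 for Uqcrc1 and -0.42 and -0.92 for Uqcrc2, and the 6 h counting interval of Uqcrc1 was 0.64 to 0.72.

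Among the other complex III genes, Uqcrfs1, the Rieske iron-sulphur protein, was at 148, 114 and 89.1 CPM, lower at both times. Uqcr10, a small subunit, was at 637 CPM with DMSO and 619 after 3 h, then 1083 after 6 h, a log2 ratio of 0.76. Uqcr11 was at 588, 469 and 810 CPM, below the control at 3 h and above it at 6 h. Uqcrb, which lies by the ubiquinone site, did the reverse, at 337, 365 and 230 CPM. Uqcrq was at 732, 777 and 901 CPM, and Uqcrh, the hinge protein that binds cytochrome c1, at 423, 551 and 536 CPM. Uqcrb, Uqcr11 and Uqcrh have near copies, so their counts are uncertain.

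Complex IV, cytochrome c oxidase, held the member with the highest log2 ratio of CPM + 1 at both times. Cox4i1, the subunit through which ATP levels are known to regulate the enzyme, was at 1458 CPM with DMSO, 2704 after 3 h and 2786 after 6 h. Its log2 ratios were 0.89 (0.88 to 0.90) and 0.93 (0.92 to 0.95), so the treated libraries lay close to each other and far above the control. The gene lies at chr8:120668222-120674207 on the plus strand, has 5 exons and overlaps Emc8 on the other strand. Reads of such overlapping genes can be told apart only if the counting used strand, which is not given in the sources used here. The same limit holds for Ndufs1, Ndufs3, Ndufs6, Ndufa9, Ndufa13, Ndufaf3, Uqcrb, Uqcrc2, Cox5a, Cox6c, Atp5d, Atp5f1 and Atp5l. Ndufa13 also overlaps Yjefn3 on its own strand, where strand cannot tell reads apart. Cox4i2, the paralogue of Cox4i1 and a form induced by low oxygen, stayed under 0.08% of the pair's UMIs in each library, at 0.0575, 0.0791 and 0.0523%.

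The 14 complex IV genes had median log2 ratios of 0.23 at 3 h and 0.21 at 6 h, with 11 and 10 higher than in the control. Cox7c, a small membrane subunit, was the lowest of them at both times, at 1216 CPM with DMSO, 862 after 3 h and 659 after 6 h. Its 6 h log2 ratio was -0.88 (-0.91 to -0.86), but it has near copies and its counts are uncertain. Cox6c was at 813, 761 and 692 CPM, and Cox5b at 505, 648 and 558 CPM. Cox5a, a subunit on the matrix side, was at 983, 1169 and 903 CPM, above the control at 3 h and below it at 6 h. Cox5a, Cox6a1 and Cox6c have near copies too, as does Ndufs3 of complex I.

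Several complex IV subunits come in tissue-specific pairs, and the common form prevailed in most pairs in these cells. Cox6b2, known as the testis form, took 15.6% (15.3 to 15.9%) of the Cox6b pair with DMSO, 15.9% (15.4 to 16.4%) after 3 h and 21.1% (20.5 to 21.7%) after 6 h. The 6 h interval lay above the other 2, which overlapped. Cox6b2 itself was at 83.9, 108 and 140 CPM, and Cox6b1 at 454, 570 and 523 CPM. In the Cox7a family Cox7a2 took 73.3, 69.7 and 72.1%, Cox7a2l, a factor of respiratory supercomplexes, 25.6, 29.1 and 26.6%, and the muscle form Cox7a1 1.15, 1.20 and 1.36%. Cox6a1 took 99.83, 99.83 and 99.69% of the Cox6a pair and Cox8a 99.98, 99.95 and 99.98% of the Cox8 family. Cox6a1 was at 234, 249 and 235 CPM, and Cox8a at 1111, 1294 and 1436 CPM.

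In complex V the 17 genes had median log2 ratios of 0.01 at 3 h and 0.10 at 6 h, with 9 and 10 higher than in the control. The 3 genes of the c subunit went apart. Atp5g1 was at 662 CPM with DMSO, 900 after 3 h and 1047 after 6 h. Atp5g2 was at 452, 391 and 246 CPM, and Atp5g3 at 193, 140 and 131 CPM. Their sum stayed closer to the control, at 1308, 1431 and 1424 CPM, log2 ratios of 0.13 and 0.12.

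As shares of that sum, Atp5g1 took 50.6% (50.4 to 50.9%) with DMSO, 62.9% (62.4 to 63.3%) after 3 h and 73.6% (73.1 to 74.0%) after 6 h. Atp5g2 took 34.6, 27.3 and 17.2%, and Atp5g3 took 14.8, 9.79 and 9.17%. The Atp5g1 intervals of the 3 libraries did not overlap, and a factor per library cancels in such a share. Atp5g1 and Atp5g2, with nearly the same share of codons that end in G or C, were on opposite sides. Atp5g2 has near copies among transcripts outside the files' gene list, and whether reads were lost to them was not tested.

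**Figure D3:**
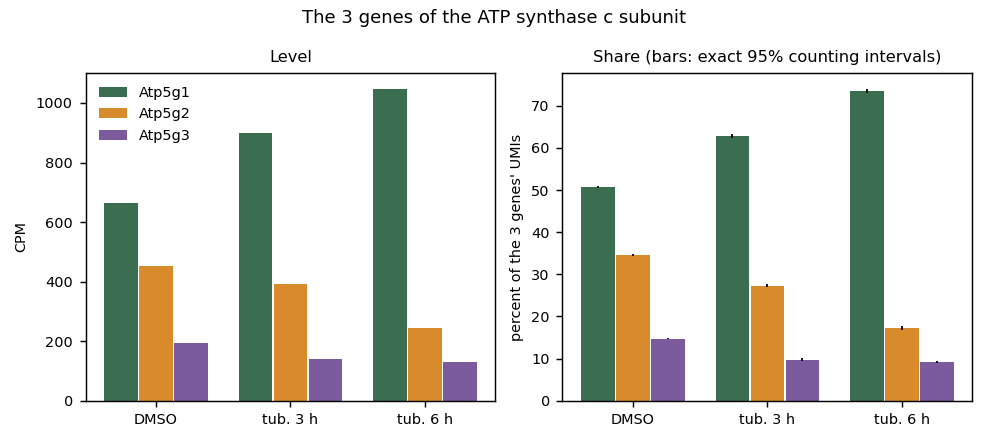
Level (CPM, left) and share of their summed UMIs (percent, right) of Atp5g1, Atp5g2 and Atp5g3 in the DMSO, 3 h and 6 h libraries, with exact 95% counting intervals on the shares. Atp5g1 goes from 50.6% to 62.9% and 73.6%, and Atp5g2 from 34.6% to 27.3% and 17.2%.

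Of the catalytic head, Atp5b, the beta subunit with the catalytic sites, was at 835 CPM with DMSO, 1269 after 3 h and 882 after 6 h, so it was high in the 3 h library. Atp5d, the delta subunit of the central stalk, was at 314, 428 and 447 CPM, higher in both. Atp5f1, the b subunit of the outer stalk, was lower in both, at 616, 482 and 420 CPM. Atp5l, the g subunit of the membrane part, was at 725, 1007 and 991 CPM, and its counts are uncertain because of near copies.

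The partner subunits from the mitochondrial genome changed by other amounts than the nuclear ones. The 13 mitochondrially encoded genes took 2.95% of UMIs with DMSO, 3.43% after 3 h and 2.87% after 6 h. In complex IV the nuclear members summed to 8372, 10090 and 9780 CPM and their 3 mitochondrial partners to 15169, 16825 and 14138 CPM, a ratio of 0.552, 0.600 and 0.692. Cox4i1 alone gave 1458, 2704 and 2786 CPM of the nuclear sum of complex IV and most of its rise over the control. The complex IV ratio therefore rests largely on that gene. In complex V the ratio of nuclear to mitochondrial UMIs was 1.76, 1.84 and 2.68. Complex III, with mt-Cytb as its one mitochondrial partner, had ratios of 0.995, 0.672 and 1.23, and complex I 1.38, 1.21 and 1.23. These sums went by symbol. Ndufa4, known as a subunit of complex IV, was counted in complex I, at 870, 685 and 557 CPM. Cyc1 of complex III, at 272, 268 and 290 CPM, was not counted. The ratios of complexes I, III and IV depend on this grouping.

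Other genes of the pathway, which the symbol rule left out, were read from lists, and their counts stand against 24.8% of all genes at least 0.32 above the median gene and 24.9% below at 3 h, and 26% and 26.4% at 6 h. Complex II, succinate dehydrogenase, is wholly nuclear-encoded and had median log2 ratios over 4 genes of -0.44 at 3 h and -0.38 at 6 h, with 0 genes at least 0.32 above the median gene at either time and 1 and 2 below. Sdha, the flavoprotein, was at 108, 102 and 116 CPM, and Sdhd, a membrane anchor, at 37.1, 22.8 and 21.7 CPM. The 4 complex II assembly factors had medians of -0.72 and -0.57, with 0 above and 3 below at each time. Sdhaf4 was lowest at 3 h, at -0.83, and Sdhaf3 at 6 h, at -0.63, while Sdhaf2 (-0.36) and Sdhaf1 (-0.14) were the highest at those times. Cycs, cytochrome c, was at 236, 262 and 240 CPM and Cyc1, cytochrome c1 of complex III, at 272, 268 and 290 CPM.

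Of 19 complex IV assembly factors, 4 were at least 0.32 above the median gene and 5 below at 3 h, and 3 and 6 at 6 h, near the shares of all genes. Cox17, the copper chaperone that hands copper to the Sco proteins, was at 152 CPM with DMSO, 48.7 after 3 h and 49.8 after 6 h, log2 ratios of -1.62 and -1.59. Those ratios were below those of all 84 members. Surf1, needed for haem insertion, was highest at 3 h, at 0.39, and Taco1, a translation activator of mt-Co1, at 6 h, at 0.53. Among 6 complex III assembly factors, 3 were above and 0 below at each time, and Lyrm7, which helps insert the Rieske protein, was at 4.04 CPM with DMSO and 13.0 CPM after 6 h. The lowest of them were Uqcc3 at 3 h, at -0.49, and Ttc19 at 6 h, at -0.24. Uqcrfs1, the Rieske protein itself, was lower at both times, as given above.

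The 7 complex I assembly genes outside the symbol rule had medians of -0.40 and -0.38, with 0 above and 1 and 2 below. Timmdc1 was lowest at 3 h, at -0.82, and Tmem126b at 6 h, at -0.77, and the highest were Nubpl at 3 h, at 0.03, and Tmem186 at 6 h, at 0.07. For complex V, Atpif1, the inhibitor that stops the enzyme running in reverse, was at 571, 767 and 794 CPM, and the assembly factors Atpaf2 at 3 h, -0.32, and Tmem70 at 6 h, -0.56, were lowest of 4. Of 11 transcription regulators of the pathway, 2 were above and 3 below at each time, also near those shares. Tfam, which packages mitochondrial DNA, was at 92.9, 51.4 and 60.4 CPM, and Gabpb1, a partner of the ETS factor Gabpa, at log2 ratios of 0.33 and 0.95. Esrra, lowest of that list at 6 h, was at 7.81, 3.95 and 4.29 CPM.

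As a comparison, ribosomal protein genes were taken by symbol, cytosolic as Rpl or Rps and mitochondrial as Mrpl or Mrps. The cytosolic list thus also holds genes named like them, such as Rps19bp1 and Rpl7l1. The 81 cytosolic genes had median log2 ratios of 0.28 and 0.04, and the 78 Mrpl and Mrps genes of -0.07 and -0.10. The members' medians, 0.05 and 0.11, lay between the 2 ribosomal lists at 3 h and above both at 6 h. No test of these differences was possible with 1 library per condition.

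Within each library the members' share of a cell's UMIs had a median of 2.96% with DMSO, 3.25% after 3 h and 3.36% after 6 h. The middle 50% of cells spanned 2.74 to 3.17%, 2.95 to 3.5% and 2.98 to 3.74%. Thinned to 4000 UMIs per cell, which left out 0, 122 and 284 cells, the medians were 2.95, 3.25 and 3.38%. The SD over thinned cells was 0.460, 0.561 and 0.568 percentage points, where counting alone at this depth gives 0.267, 0.279 and 0.285. Cells thus differed by more than counting in every library.

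Cells under 2% numbered 29 of 2031 (1.43%) with DMSO, 130 of 2365 (5.50%) after 3 h and 84 of 2926 (2.87%) after 6 h, at unequal depth. Of these, 0, 64 and 69 were cells of under 4000 UMIs. Thinned to 4000 UMIs, which leaves those cells out, 41 of 2031 (2.02%), 65 of 2243 (2.90%) and 16 of 2642 (0.606%) were under 2%, and the 5th percentiles were 2.25, 2.30 and 2.48%. Among cells of at least 4000 UMIs, the share under 2% was thus above the control at 3 h and below it at 6 h. Thinning left out 122 and 284 cells of the treated libraries and 0 of the control. Those of them under 2%, 64 and 69, could not be set beside control cells at equal depth. In cells with over 10% mitochondrially encoded UMIs, which numbered 26, 124 and 50, the median share was 1.21, 1.90 and 1.78%, against 2.96, 3.27 and 3.38% in the other cells. The 10000 barcodes after rank 5000 by UMIs, which hold mostly free RNA, had 2.34, 3.69 and 3.01% of their UMIs from the members, and the part of free RNA in the cells' values was not tested beyond the subtraction given with the other settings. Cut into 4 equal groups by UMIs per cell, the shallowest 3 h cells had a median of 3.02% and the other 3 groups lay between 3.26 and 3.31%. At 6 h the 4 groups lay between 3.27 and 3.45%.

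**Figure D4:**
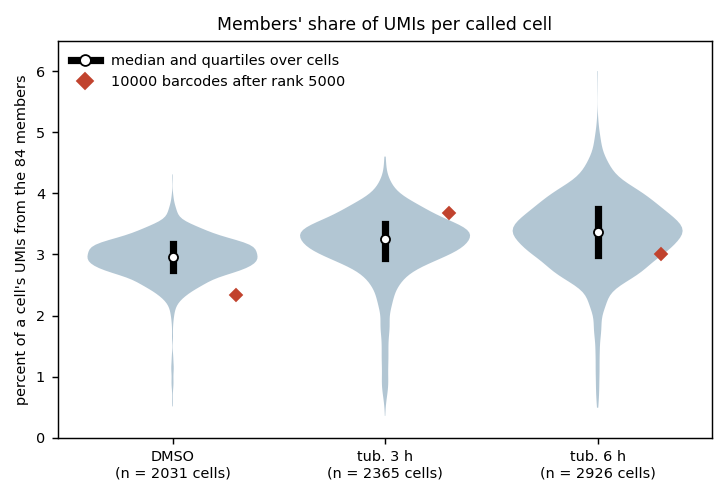
Distribution over called cells of the percent of UMIs from the 84 members (vertical axis) in each library, with medians (circles), quartiles (bars) and the same percent in the 10000 barcodes after rank 5000 (diamonds). Medians are 2.96, 3.25 and 3.36%, and since cells are not thinned here, the width of each distribution also reflects its depth.

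One feature of the transcripts that the rule did not use went along with the members' order. Among 11 features of length, exon number, base composition and control level, screened for 3 comparisons, the GC content of the 3′ UTR was chosen because its rank correlation at 6 h was the largest. Across the 84 members Spearman's rho between 3′ UTR GC and log2 ratio was 0.37 at 3 h and 0.64 at 6 h. Across 12068 genes it was 0.26 and 0.28. The members' 3′ UTRs are short, with a median of 160.5 bases against 997 over 12233 genes tested. Their GC percent is therefore coarser than that of most genes. The points share their libraries and the control, the features overlap (GC of the whole transcript gave 0.32 and 0.55), and genes are not independent, so these are descriptions with no p.

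In 3 groups of 28 members by 3′ UTR GC, the lowest (21.2 to 38.1%) had a median 6 h log2 ratio of -0.33 with 23 lower than in the control, where 59.8% of all genes were lower. The middle (38.6 to 47.2%) had 0.14, with 8 lower, and the highest (47.5 to 62.9%) 0.39, with 3 lower. Uqcrc1 at 62.9% and Cox4i1 at 60.0% stood at the top, and Cox7c at 25.2%, Ndufb3 at 29.6% and Ndufa1 at 30.8% near the bottom. Atp5g2 went against this order, with 46.0% beside 45.7% for Atp5g1, as did Ndufa8 at 42.1%. Within complexes rho at 6 h was 0.86 over 8 genes of complex III, 0.79 over 14 of complex IV, 0.46 over 17 of complex V, 0.52 over 37 complex I subunits and 0.31 over the 8 assembly factors. At 3 h the same groups had 0.38, 0.54, 0.19, 0.28 and -0.02. The values rest on 1 transcript per gene, and which 3′ ends were used in these cells was not analysed here.

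**Figure D5:**
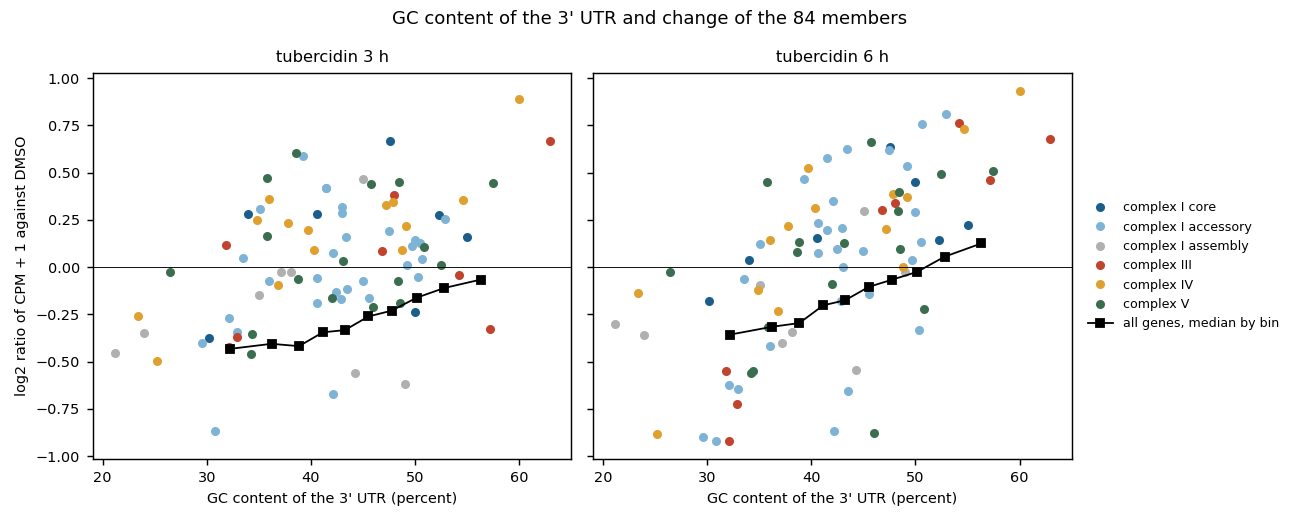
Log2 ratio of CPM + 1 against DMSO (vertical axis) over the GC content of the 3′ UTR (horizontal axis, percent) for the 84 members at 3 h (left) and 6 h (right), coloured by role, with medians of all genes in 10 equal bins of 3′ UTR GC (squares). Spearman's rho over members is 0.37 and 0.64, and the medians of all genes go from -0.36 in the lowest to 0.13 in the highest bin at 6 h.

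Promoters were searched because many genes of this pathway are known targets of NRF1 and of ETS factors. RefSeq (GRCm38.p6) windows from 250 bases before to 50 after the start were found for 71 of the 84 members, as 76 promoters. The NRF1 core GCGCATGC, on either strand, was in 14.5% of these and in 2.71% of all 32851 promoters. The ETS core CCGGAAG was in 22.4% against 8.86%, the YY1 core AAGATGG in 14.5% against 6.34%, the SP1 box GGGCGG in 43.4% against 35.7% and the TATA box TATAAA in 10.5% against 13.6%. A match is a description of letters and not a bound site, and matches of different motifs may overlap.

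Members with an NRF1 core had a median 6 h log2 ratio of 0.00 and those without of 0.13. For the ETS core the medians were 0.15 and 0.09, for the YY1 core 0.09 and 0.11, for the SP1 box -0.03 and 0.22 and for the TATA box 0.21 and 0.09. At 3 h the medians with and without were -0.07 and 0.08 for the NRF1 core, 0.05 and 0.06 for the ETS core, -0.07 and 0.10 for the YY1 core, -0.03 and 0.16 for the SP1 box and -0.16 and 0.08 for the TATA box. The order was thus the reverse of that at 6 h for the TATA box and, with values close together at 3 h, for the ETS core. Members with a match numbered 11 for the NRF1 core, 17 for the ETS core, 11 for the YY1 core, 32 for the SP1 box and 7 for the TATA box. Cox4i1, Uqcrb, Uqcrc2 and Uqcrq are among the members without a promoter window. The 2 promoters below show an NRF1 core in a gene that was higher at 6 h, Uqcr11, and in a gene that was lower, Atp5g2. Both run 5′ to 3′ on the gene's strand, which is minus for each, at chr10:80406772-80407071 and chr15:102670998-102671297, and capitals mark matches to the 5 motifs.
Uqcr11: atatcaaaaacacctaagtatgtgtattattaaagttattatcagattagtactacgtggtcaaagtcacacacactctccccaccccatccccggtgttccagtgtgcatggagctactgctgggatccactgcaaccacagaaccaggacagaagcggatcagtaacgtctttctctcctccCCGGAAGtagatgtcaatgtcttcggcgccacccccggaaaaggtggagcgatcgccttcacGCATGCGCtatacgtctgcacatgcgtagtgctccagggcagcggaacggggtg
Atp5g2: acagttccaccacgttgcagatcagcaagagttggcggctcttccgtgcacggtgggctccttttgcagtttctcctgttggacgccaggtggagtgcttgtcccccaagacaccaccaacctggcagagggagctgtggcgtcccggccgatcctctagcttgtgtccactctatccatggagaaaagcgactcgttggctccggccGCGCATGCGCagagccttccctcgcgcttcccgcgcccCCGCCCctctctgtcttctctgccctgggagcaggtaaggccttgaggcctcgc
Uqcr11 had 2 matches, an NRF1 core and an ETS core. Atp5g2 had 3, an NRF1 core found on both strands of an overlapping run and an SP1 box. The Atp5g2 window lies inside the M21 bounds of the gene, chr15:102662864-102672352. It thus belongs to a RefSeq start downstream of the outer M21 end, and which start was used in these cells was not tested.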

How the data were processed

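Single-cell RNA of 3 libraries was analysed, 1 per condition. The authors deposited raw UMI counts per gene and barcode without a cell filter, per the file headers, made with Cell Ranger 7.1.0 on mm10, per the submitters' processing notes. The annotation version and the counting of intronic reads are not given in the sources used here. A barcode was called a cell when its UMIs reached 1/10 of the 99th percentile among the top 3000 of its library, with 500 genes or more detected and 20% or less of UMIs mitochondrially encoded. Doublets were kept, cells were not clustered, and cells above 2 times the median UMIs were left out as an alternative. UMIs were summed per library, scaled to CPM and compared as log2 of CPM + 1, which shrinks changes of low genes. Exact conditional binomial intervals were taken for ratios without the pseudocount and Clopper-Pearson intervals for shares, and all cover counting error only. Neither tests nor p-values are given.

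Members named in the text were the 2 highest and 2 lowest log2 ratios of each role at each time among 83 members with a mean of at least 10 CPM, the isoform families, all Uqcr genes and the complex I core, 45 in all. Of these, 1 member is not reported here and was left out of the plots by gene, but counts in each summary over the members. Cox5a and Ndufa4 were added after their values were seen. Members and lists were chosen with earlier results of these data known, and motifs and transcript features were chosen after the files had been examined. GENCODE M21 (GRCm38) gave coordinates and the structure of 1 coding transcript per gene, and 32158 of 32285 identifiers were found there. A near copy is another M21 gene with at least 95% identity over at least 100 of a member's last 300 bases (blastn 2.17.0), which 20 members have. Another gene of the files overlaps 27 members on the other strand and 1, Ndufa13, on the same strand. Whether counting used strand is not given in the sources used here. The statistics were tested on simulated counts. Scripts ran in Python 3.11.15 with scipy 1.17.1, numpy 2.4.6, matplotlib 3.10.9 and pandas 2.3.3.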

Additional observations from a re-analysis of the deposited data

Results flagged for a closer look

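Uqcrb, the complex III subunit beside the ubiquinone site, differed from the median gene by 0.40 at 3 h and by -0.43 at 6 h on the log2 scale, the one member at least 0.32 away from it in opposite directions. The difference between the times was not tested, both values share the control library, and Uqcrb has 3 near copies in the genome.

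Outside the called cells, in the 10000 barcodes after rank 5000 by UMIs, the members took 3.69% of UMIs at 3 h and 3.01% at 6 h, above the 2.34% (2.32 to 2.35%) of the control library. At 3 h this was higher than the 3.23% in called cells, and at 6 h lower than the 3.33% there.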

How the results depend on the processing

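13 alternatives to the processing changed 1 choice each. Relative to the median gene, 3 of them (median-of-ratios factors, TMM factors and UMIs per cell with the pseudocount on the CPM scale) cannot move a value. Under the 8 others applied gene by gene to the 45 named members in 3 comparisons, 869 of 1080 values moved by no more than their counting error (the distance from the middle to the end of the counting interval) and 211 by more, and 0 of those at least 0.32 away changed sign. The remaining alternatives were minimum levels, which change the genes tested. The members' median at 3 h was 0.29 with median-of-ratios factors, 0.24 with TMM factors and -1.98 as UMIs per cell. Relative to the median gene it was 0.36 with the cell minimum doubled or a pseudocount of 0.1 CPM, 0.26 with equal weight for each cell, 0.27 after subtracting free RNA at 10% of UMIs and 0.27 among genes that average 50 CPM or more. At 6 h the median was -2.50 as UMIs per cell, and its position relative to the median gene 0.18 among genes at 50 CPM or more. Between 6 h and 3 h the median was -0.24, -0.23 and -0.59 with median-of-ratios factors, TMM factors and UMIs per cell, and 0.0213 with equal weight for each cell, where the position relative to the median gene was -0.0803. The Atp5g1 share at 3 h was 62.4% after subtraction of free RNA.

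UMIs per cell were first computed with the pseudocount added after the scaling, which shrinks low genes of the treated libraries more. The pseudocount was moved to the CPM scale after those values had been seen, and both versions are given. In the first version the members' median was -1.94 at 3 h, -2.47 at 6 h and -0.58 between them, and relative to the median gene -0.0247, -0.23 and -0.32. Members at least 0.32 above and below the median gene then numbered 12 and 16 at 3 h and 7 and 33 at 6 h. Of the named members at least 0.32 away from it, Cox6a1 (-0.00694), Cox7a2 (-0.0210), Ndufv3 (-0.0442) and Uqcrq (-0.0232) changed sign at 3 h, and Cox6b1 (-0.16), Cox7a2 (-0.0598), Cox8a (-0.00524), Ndufs8 (-0.0670), Uqcrh (-0.0243) and Uqcrq (-0.0713) at 6 h. The members' place above the median gene therefore depends on where the pseudocount enters when libraries are not scaled. Spearman's rho with 3′ UTR GC ranged over all alternatives, those chosen after seeing the data included, from 0.28 to 0.44 at 3 h and from 0.56 to 0.65 at 6 h. No paired analysis was possible because each condition has 1 library. Depth limits Cox7b2 most, at 113 UMIs in control cells.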
